A study of Mus musculus with 24 samples.

Results

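The 9 genes Asns, Asnsd1, Glul, Gfpt1, Got1, Got2, Gpt2, Ass1 and Asl encode enzymes that make or use asparagine, aspartate and glutamine, and one relative of asparagine synthetase. They were chosen by symbol for the reactions they catalyse, by a rule that uses no measured value, although earlier results of these data were known. Each had 1 row among the 23478 gene symbols counted. The RNA came from 4T1-T, a derivative of the mouse mammary carcinoma line 4T1, infected with a vector for a short hairpin RNA and recovered from mice as lung metastases or as primary tumors. In each site there were 4 libraries of cells labelled shAsns-1 and 4 labelled shAsns-2, hairpins against asparagine synthetase, and 4 labelled shRenilla, a control hairpin against a luciferase that mouse cells do not carry. All 24 libraries share 2 further steps, which are selection of the recovered cells in 6-thioguanine, to which the tumor cells but not host cells are resistant, and growth in culture. The medium was DMEM supplemented with non-essential amino acids, a supplement that contains asparagine, aspartate and glutamate, so the RNA describes cells in dishes supplied with the products of these enzymes and not cells in the tumor or lung itself. The labels do not say whether the libraries lettered A to D came from separate mice or cultures, and the p-values below therefore measure only the spread between libraries, which may be technical.

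Asparagine synthetase transfers nitrogen from glutamine to aspartate and is the enzyme that makes asparagine in mammalian cells. Aspartate comes mainly from oxaloacetate through the aspartate aminotransferases, one in the cytosol and one in mitochondria, which also carry reducing equivalents in the malate-aspartate shuttle. Glutamine synthetase makes glutamine from glutamate, and argininosuccinate synthase draws on aspartate for arginine synthesis. In many cell types, shortage of an amino acid raises transcription of asparagine synthetase through the factor Atf4, and asparagine supply is known to limit the growth and spread of some tumors.

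In human ASNS this response runs through 2 nearby elements of the promoter, and the mouse gene was searched for the same letters because Asns was the member that moved furthest. Sequences are from RefSeq on build GRCm38.p6, printed 5′ to 3′ on the gene's own minus strand, with the matched letters in capitals. In Asns the capitals mark TGATGAAAC and GTTACA, and in Got1 they mark the reverse strand of TGATGNAA, the general form to which TGATGAAAC also belongs.
Asns chr6:7693205-7693234: caTGATGAAACttcccgcacgcGTTACAga
Got1 chr19:43524689-43524718: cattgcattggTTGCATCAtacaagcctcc
The Asns stretch begins at position -25 from the RefSeq start site, with 11 bases between its matches. It lies inside the span that GENCODE gives for Asns, which begins further upstream than the RefSeq start site. The Got1 stretch begins at position -113 from its start site. Windows from 250 bases before to 50 after a start site were searched on both strands. TGATGNAA was found in 3.969% of the 32851 promoters in the table, TGATGAAAC in 0.247% and GTTACA in 8.246%. Of the 7 members with a promoter in the table, Asns and Got1 held TGATGNAA, and Asns alone held the other letters. These matches describe the sequence and do not show that a factor binds there.

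The 24 libraries held 8.48 to 38.0 M counts each (M for 1000000), and 12625 genes, 8 of the 9 members among them, had enough counts to test. Levels are counts per 1000000 (CPM) on library totals scaled by the trimmed mean of M values (TMM), or RPKM where genes are compared per length. Changes are log2 fold changes ± standard error from edgeR's quasi-likelihood fit over all 24 libraries, and genes whose p, adjusted by the Benjamini-Hochberg method, was under 0.05 were called. Where groups are said below not to overlap, the share of all genes that also did not overlap was not computed. Those statements therefore describe single genes and are not set against the background. Library B of lung shRenilla and library D of lung shAsns-2 lay furthest from the rest of their groups, with root mean square log2 distances of 0.597 and 0.554, against 0.251 to 0.451 for the other 22. Of the 6 epithelial markers, all with counts in every library, the keratins Krt8 and Krt18 stood at 138 to 286 and 174 to 422 CPM, while Cdh1 spanned 18.6 to 298 CPM and Epcam 8.27 to 134 CPM. The 6 summed to 421 to 474 CPM in lung libraries labelled shAsns-1, 380 to 781 in lung shAsns-2 and 426 to 596 in lung shRenilla. In tumor they summed to 452 to 606 CPM in libraries labelled shAsns-1, 903 to 1040 in shAsns-2 and 739 to 892 in shRenilla, without overlap. Markers of alveolar cells summed to at most 0.154 CPM, those of endothelium to at most 1.39 CPM and those of adipocytes to at most 1.07 CPM. The 8 leukocyte markers in the table summed to 16.3 to 27.6 CPM over the lung libraries, and in tumor to 11.1 to 15.0 CPM in libraries labelled shAsns-1, 14.8 to 16.3 in shAsns-2 and 16.0 to 20.5 in shRenilla. Most of it was Cd14, at 9.69 to 20.2 CPM, with Lyz2 at up to 7.84 CPM and the general leukocyte gene Ptprc at up to 0.562 CPM. The 9 fibroblast markers summed to 34.3 to 70.2 CPM in lung libraries labelled shAsns-1, 24.1 to 27.3 in lung shAsns-2 and 26.3 to 51.4 in lung shRenilla, most of it from Pdgfra, and in tumor to 24.0 to 32.4 CPM in libraries labelled shAsns-1, 19.0 to 23.3 in shAsns-2 and 17.5 to 21.1 in shRenilla. The part of these markers in the results below was not tested. In bulk samples such as these, fewer cells that express a gene and less RNA per cell cannot be told apart.

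Asns, on chr6:7675169-7693254, differed from shRenilla in opposite directions in the libraries of the 2 Asns hairpin labels. It was the most abundant member per length in the libraries labelled shAsns-1, at 70.9 ± 6.65 RPKM in lung and 62.3 ± 6.24 RPKM in tumor (SD, n = 4 each), while in tumor shRenilla it was the third and in the remaining 3 groups the fourth. In lung, Asns had 219, 191, 176 and 189 CPM in libraries labelled shAsns-1 and 44.5, 46.7, 51.3 and 35.8 CPM in shAsns-2 libraries, against 69.1, 53.1, 70.2 and 62.0 CPM in shRenilla libraries. In tumor, it had 185, 152, 185 and 159 CPM in libraries labelled shAsns-1 and 48.3, 42.3, 30.4 and 26.2 CPM in shAsns-2 libraries, against 84.6, 84.6, 61.7 and 100.2 CPM in shRenilla libraries. Every library labelled shAsns-1 was above every shRenilla library, and every shAsns-2 library was below every shRenilla library of its own site. The higher Asns in the libraries labelled shAsns-1 goes against a label that names a hairpin meant to lower it, and the labels give no reason.

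The order of the group means in CPM was 193.9 in lung shAsns-1, 170.4 in tumor shAsns-1, 82.8 in tumor shRenilla, 63.6 in lung shRenilla, 44.6 in lung shAsns-2 and 36.8 in tumor shAsns-2. Within each hairpin the lung and tumor libraries overlapped, and between neighbours of different hairpins in this order they did not. Asns rose in the libraries labelled shAsns-1 over shRenilla by 1.61 ± 0.16 in lung (edgeR adjusted p = 2.62e-06) and by 1.04 ± 0.16 in tumor (edgeR adjusted p = 1.47e-05) on the log2 scale. It fell by 1.18 ± 0.16 in tumor shAsns-2 against shRenilla (edgeR adjusted p = 0.00122). That last call was narrowly missed when only the 2 groups compared were fitted (adjusted p = 0.0502). In lung, shAsns-2 against shRenilla gave -0.51 ± 0.16 with edgeR (adjusted p = 0.405), although the 4 libraries of each group did not overlap (exact permutation p = 0.0286, two-sided, the smallest that 4 against 4 allows). With limma on the same counts, which called 12.3% of all genes in this comparison, that difference passed at an adjusted p of 0.00182. Set directly against shAsns-2, the libraries labelled shAsns-1 had 4.35-fold more Asns in lung (edgeR adjusted p = 9.35e-09) and 4.66-fold more in tumor (edgeR adjusted p = 1.84e-10). These hairpin contrasts share libraries and are not independent of each other.

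**Figure D1:**
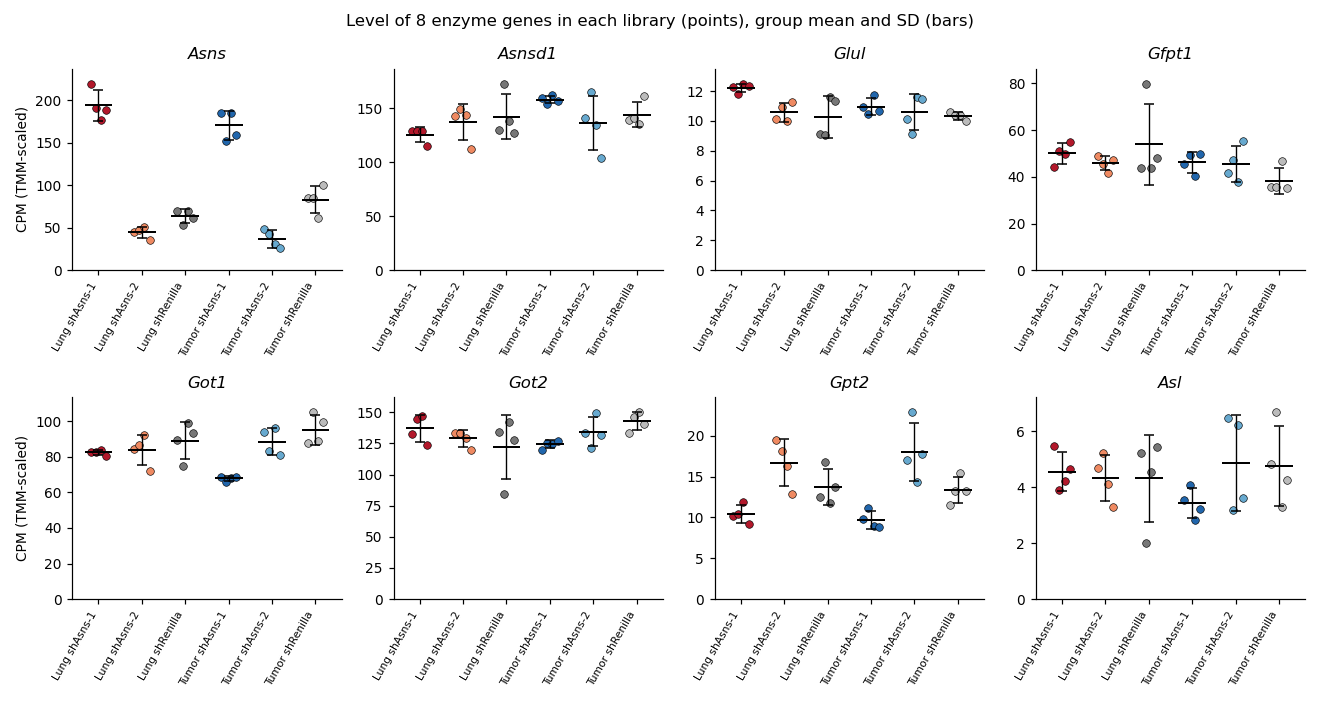
Each panel plots 1 gene, with CPM on TMM-scaled totals on the vertical axis and the 6 groups of site and hairpin on the horizontal axis; points are single libraries, the long bar is the group mean and the whiskers are 1 SD (n = 4). In libraries labelled shAsns-1 Asns lies at 152 to 219 CPM, and in shAsns-2 libraries at 26.2 to 51.3 CPM, and Gpt2 runs the other way across the hairpins.

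No difference of Asns between sites was called in the fit of all groups. Lung against tumor gave 0.19 ± 0.16 in the libraries labelled shAsns-1, 0.29 ± 0.16 in shAsns-2 and -0.38 ± 0.16 in shRenilla, with edgeR adjusted p of 0.48, 0.216 and 0.0851. Without library C of tumor shRenilla, the lowest of its group, the last was -0.51 at an edgeR adjusted p of 0.0273, and limma called it at 0.0197. The difference of libraries labelled shAsns-1 from shRenilla is called the shAsns-1 effect here and below, without a claim about its cause. For Asns it was 0.57 ± 0.22 larger on the log2 scale in lung than in tumor, with a 95% interval of 0.11 to 1.02. This difference did not pass the adjusted threshold (edgeR adjusted p = 0.085). It passed in 5 of the 33 alternatives run, among them limma (0.013) and the fit without tumor shRenilla library C (0.0362). The corresponding difference for shAsns-2 was 0.67 ± 0.23, with a 95% interval of 0.205 to 1.132 and an unadjusted edgeR p of 0.0064. Its edgeR adjusted p was 0.972, in a comparison that called 0% of all genes. It passed in 0 of the 33 alternatives. Both differences subtract the same lung and tumor shRenilla libraries, so they are not independent.

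Asnsd1, on chr1:53344617-53352752, encodes a protein with an asparagine synthetase domain whose role in asparagine synthesis is not established. It was abundant and nearly even, with group means of 35.5 to 44.8 RPKM, and the highest group mean was 1.26 times the lowest. It had 129, 128, 129 and 115 CPM in lung libraries labelled shAsns-1, against 159, 154, 162 and 157 CPM in tumor libraries labelled shAsns-1. All 4 lung libraries were below all 4 tumor libraries (exact permutation p = 0.0286, two-sided), and the difference of -0.33 ± 0.12 missed the threshold across all genes (edgeR adjusted p = 0.079). It passed without 1 of 3 libraries of other groups, which were D of tumor shAsns-2 (0.0444), D of lung shAsns-2 (0.0366) and B of lung shRenilla (0.0305), with DESeq2 (0.0471) and with limma (0.000438). In that site comparison 3244 of all 12625 genes had an unadjusted edgeR p under 0.05. With edgeR no hairpin contrast called Asnsd1, and its hairpin contrasts lay between -0.18 and 0.21. Asnsd1 overlaps other annotated transcripts on its own strand, and how shared reads were assigned is not given in the sources used here.

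Glul, on chr1:153899944-153909723, encodes glutamine synthetase, and it was a low gene per length at 3.09 to 3.68 RPKM. It had 12.3, 11.8, 12.5 and 12.3 CPM in lung libraries labelled shAsns-1 and 10.1, 10.9, 9.99 and 11.3 CPM in lung shAsns-2 libraries, against 9.09, 9.05, 11.6 and 11.3 CPM in lung shRenilla libraries. The 4 lung libraries labelled shAsns-1 were above all 8 other lung libraries. Against shRenilla the difference was 0.25 ± 0.11 and did not pass (edgeR adjusted p = 0.326, exact permutation p = 0.0286, two-sided). In that comparison 1665 of all 12625 genes had an unadjusted edgeR p under 0.05. In tumor the groups overlapped, with means of 10.9 ± 0.56 CPM in libraries labelled shAsns-1, 10.6 ± 1.19 CPM in shAsns-2 and 10.3 ± 0.25 CPM in shRenilla (SD, n = 4 each). No comparison called Glul under edgeR, and its largest contrast was that 0.25.

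Gfpt1, on chr6:87042846-87092197, encodes the enzyme that uses glutamine to begin hexosamine synthesis, the supply of sugars for protein glycosylation. In shRenilla cells it had 43.6, 79.9, 44.0 and 48.0 CPM in lung, against 35.8, 35.4, 46.7 and 35.2 CPM in tumor. Lung library B held the highest value and tumor library C the only tumor value inside the lung range. Gfpt1 was called higher in lung than in tumor in shRenilla cells, by 0.49 ± 0.15 (edgeR adjusted p = 0.0219), but the groups overlapped (exact permutation p = 0.0857, two-sided). The call rested on single libraries. Without lung library B the difference was 0.25 with an edgeR adjusted p of 0.113, and without tumor library A, B or D the adjusted p was 0.0533, 0.0668 and 0.0632. With only those 2 groups fitted, it was 0.0911. Lung and tumor means differed by 0.12 ± 0.15 in libraries labelled shAsns-1 and by 0.01 ± 0.15 in shAsns-2. Tumor libraries labelled shAsns-1 had 45.6, 49.2, 40.1 and 49.9 CPM, and their difference from tumor shRenilla was 0.27 ± 0.15 (edgeR adjusted p = 0.179). It passed without lung shRenilla library B, at an edgeR adjusted p of 0.042, and with limma, at 0.0166.

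Got1, on chr19:43499752-43524605, encodes the cytosolic aspartate aminotransferase. It was lowest in the tumor libraries labelled shAsns-1. In tumor it had 68.8, 65.9, 68.1 and 68.8 CPM in libraries labelled shAsns-1 and 93.8, 83.1, 96.0 and 80.8 CPM in shAsns-2 libraries, against 87.9, 105, 88.5 and 99.5 CPM in shRenilla libraries. All 4 tumor libraries labelled shAsns-1 were below the other 8 tumor libraries and below all 12 lung libraries. Got1 fell by 0.49 ± 0.10 against tumor shRenilla (edgeR adjusted p = 0.000328) and by 0.38 ± 0.10 against tumor shAsns-2 (edgeR adjusted p = 0.00468), and both calls held under each of the 33 alternatives run. Asns rose in the same tumor libraries, which goes against their label, and the summed epithelial markers were lower there than in both other tumor groups, at 452 to 606 CPM. Their part in the Got1 result was not tested.

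In lung, Got1 had 82.8, 82.8, 83.5 and 80.4 CPM in libraries labelled shAsns-1 and 84.1, 86.6, 92.1 and 72.1 CPM in shAsns-2 libraries, against 89.4, 74.6, 98.8 and 93.4 CPM in shRenilla libraries. These lung groups overlapped, and shAsns-1 against shRenilla gave -0.11 ± 0.10 with edgeR (adjusted p = 0.591) and -0.19 with limma (adjusted p = 0.0434). The lung effect of shAsns-1 exceeded the tumor effect by 0.38 ± 0.14, with a 95% interval of 0.10 to 0.65, and this difference did not pass across all genes (edgeR adjusted p = 0.0622). It passed in 6 of the 33 alternatives, among them limma (0.0104) and the fits without library D of lung shAsns-2 (0.048) or library C of lung shRenilla (0.0398). Lung against tumor in the libraries labelled shAsns-1 gave 0.28 ± 0.10 without overlap (exact permutation p = 0.0286, two-sided), with an edgeR adjusted p of 0.0671, or 0.0244 without lung shRenilla library B. There 3244 of all 12625 genes had an unadjusted edgeR p under 0.05.

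Got2, on chr8:95864134-95888547, encodes the mitochondrial aspartate aminotransferase and was among the steadiest members, with a highest group mean 1.17 times the lowest. In tumor it had 120, 126, 125 and 127 CPM in libraries labelled shAsns-1 and 134, 122, 150 and 132 CPM in shAsns-2 libraries, against 134, 147, 150 and 141 CPM in shRenilla libraries. The libraries labelled shAsns-1 were below the shRenilla libraries without overlap (exact permutation p = 0.0286, two-sided). In this comparison 5506 of all 12625 genes had an unadjusted edgeR p under 0.05. The difference of -0.20 ± 0.11 did not pass (edgeR adjusted p = 0.183), and without lung shRenilla library B it did (edgeR adjusted p = 0.0459). In that library Got2 stood at 84.4 CPM, against 127 to 142 CPM in the other 3 lung shRenilla libraries.

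Gpt2, on chr8:85492576-85527560, encodes the mitochondrial alanine aminotransferase, which makes alanine and 2-oxoglutarate from pyruvate and glutamate. In both sites its order across the hairpins was the reverse of that of Asns. In lung it had 10.2, 10.5, 11.9 and 9.19 CPM in libraries labelled shAsns-1 and 19.5, 18.1, 16.3 and 12.9 CPM in shAsns-2 libraries, against 12.5, 16.8, 11.8 and 13.8 CPM in shRenilla libraries. In tumor it had 9.76, 11.2, 9.02 and 8.86 CPM in libraries labelled shAsns-1 and 17.1, 22.9, 14.4 and 17.8 CPM in shAsns-2 libraries, against 11.6, 13.2, 15.5 and 13.3 CPM in shRenilla libraries. In both sites the libraries labelled shAsns-1 were below the shAsns-2 libraries without overlap.

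Gpt2 fell by 0.90 ± 0.15 in tumor libraries labelled shAsns-1 against shAsns-2 (edgeR adjusted p = 7.39e-05) and by 0.47 ± 0.15 against shRenilla (edgeR adjusted p = 0.0177), and both calls held under the 33 alternatives. The epithelial markers, lower in these tumor libraries, moved with this result too, and their part in it was not tested. In lung it fell by 0.68 ± 0.15 in libraries labelled shAsns-1 against shAsns-2 (edgeR adjusted p = 0.0434). That lung call was lost with any 1 of 7 libraries left out, which were A, B or D of lung shAsns-1, A, B or C of lung shAsns-2 and B of tumor shRenilla, at edgeR adjusted p of 0.0502 to 0.241. It was lost as well on total counts (0.0674) and with only those groups fitted (0.181). Against shRenilla, shAsns-2 gave 0.43 ± 0.15 in tumor (edgeR adjusted p = 0.487, exact permutation p = 0.0571, two-sided) and 0.28 ± 0.15 in lung (edgeR adjusted p = 0.605), so edgeR called no rise. With limma the lung difference was 0.50 and passed (adjusted p = 0.00124). Lung and tumor differed by at most 0.11 in any hairpin group, with edgeR adjusted p of 0.628 or more.

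**Figure D2:**
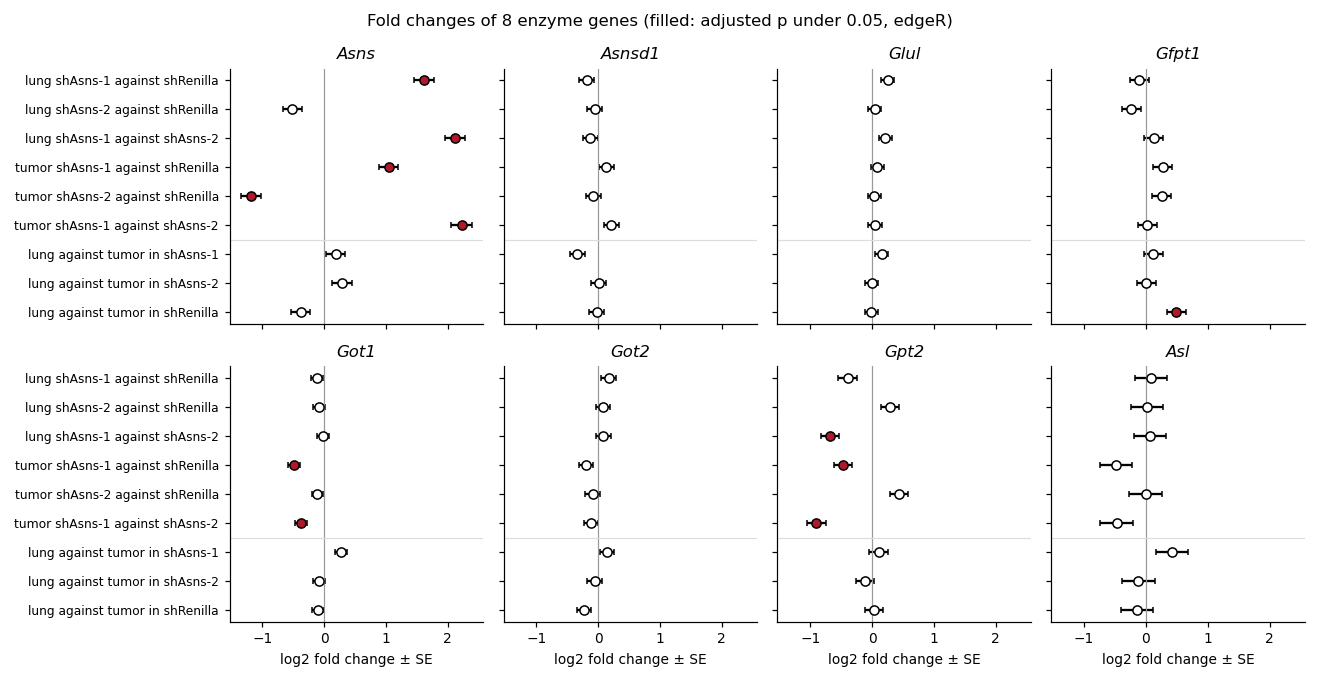
Log2 fold changes of the 8 tested genes from edgeR, with 1 standard error to each side as horizontal bars, for the hairpin comparisons within each site and for lung against tumor within each hairpin; filled points have an adjusted p under 0.05. Asns departs furthest from 0, Gpt2 lies below 0 where libraries labelled shAsns-1 are set against shAsns-2, and Got1 is called in the tumor comparisons of shAsns-1 alone.

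The enzymes that follow aspartate toward arginine were scarce. Asl, on chr5:130011258-130029247, encodes argininosuccinate lyase and stood at 0.71 to 1.01 RPKM. Over the 24 libraries it ranged from 2.02 CPM in lung shRenilla library B to 6.66 CPM in tumor shRenilla library B, all groups overlapped in every comparison, and none was called in the edgeR fit of all groups. Its intervals were wide, for instance -1.01 to 0.06 for shAsns-1 against shRenilla in tumor, a difference that limma called (adjusted p = 0.0157). Ass1, on chr2:31470207-31520672, encodes argininosuccinate synthase and had 5 counts in all 24 libraries together. There were 2 in library A of lung shAsns-1, 1 in library C of lung shAsns-2 and 2 in library A of tumor shAsns-2, and 0 counts in the other 21. A count of 0 allows up to 3 counts, or 0.0788 to 0.163 CPM depending on the library, for counting error only, so Ass1 was too low to compare.

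**Figure D3:**
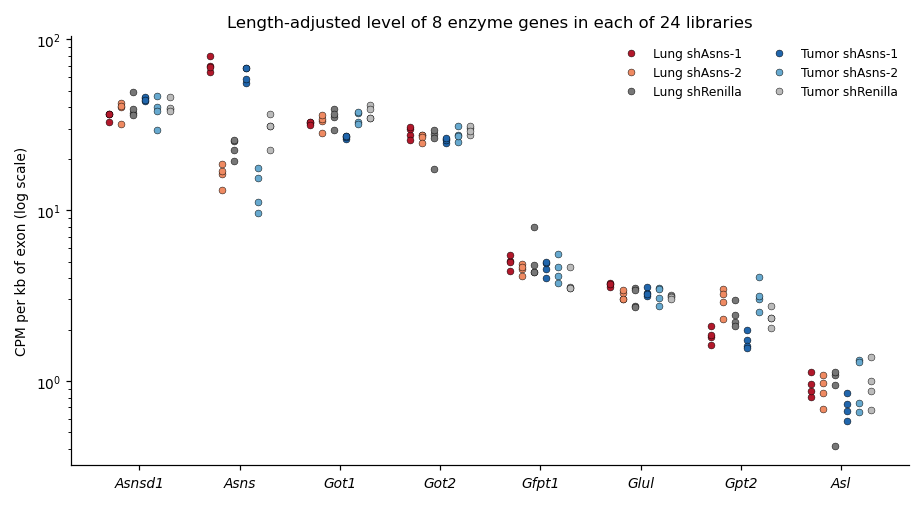
CPM per kilobase of exon (RPKM) on a log axis for each of the 8 tested genes on the horizontal axis; points are single libraries, coloured by the 6 groups of site and hairpin. Group means of Asnsd1, Got1 and Got2 stay within 25.3 to 44.8 RPKM and those of Glul and Gfpt1 within 3.09 to 5.35 RPKM, while those of Asns span 13.5 to 70.9 RPKM.

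The number of members called can be set beside the share of all 12625 tested genes called by the same edgeR rule. In lung, libraries labelled shAsns-1 against shRenilla had 1 of 8 members called and 0.206% of all genes, and against shAsns-2 they had 2 members and 0.261%. In lung, shAsns-2 against shRenilla had 0 members and 0% of genes with edgeR. There 1 member had an unadjusted edgeR p under 0.05, beside 1068 of all 12625 genes. DESeq2 called 0 members, with 0.00936% of all genes, and limma called 2, with 12.3% of all genes. In tumor, libraries labelled shAsns-1 against shRenilla had 3 of 8 members called and 33.9% of all genes, and against shAsns-2 they had 3 members and 27.1%. Those 2 member counts are close to what the background gives. In tumor, shAsns-2 against shRenilla had 1 member, Asns, and 0.0634% of all genes.

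For site, lung against tumor in shRenilla had 1 of 8 members called, Gfpt1, and 21.8% of all genes. With edgeR it had 0 members in libraries labelled shAsns-1, where 8.55% of genes were called. There 2 members had an unadjusted edgeR p under 0.05, beside 3244 of all 12625 genes. DESeq2 called 1 member (with 9.6% of all genes) and limma 2 (32.6%). Lung against tumor in shAsns-2 had 0 members with edgeR, where 20.9% of genes were called. There 0 members had an unadjusted edgeR p under 0.05, beside 4250 of all genes. DESeq2 called 0 members (21% of all genes) and limma 1 (39.9% of all genes). The difference of the hairpin effect between lung and tumor had 0 members for shAsns-1 with edgeR, against 14.2% of genes. At an unadjusted edgeR p under 0.05 it had 3 members, beside 3731 of all genes. DESeq2 called 0 members (16.9% of all genes) and limma 2 (29.1% of all genes). For shAsns-2 this difference had 0 members and 0% of genes with edgeR. At an unadjusted edgeR p under 0.05 it had 2 members, beside 599 of all genes. DESeq2 and limma each called 0 members, with 0.00468% and 0% of all genes. The median member change was -0.06 in tumor shAsns-1 against shRenilla, beside -0.01 over all genes, and 0.15 for lung against tumor in libraries labelled shAsns-1, beside 0.03.

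The neighbouring steps of the same pathways were followed in 8 lists, of which 66 genes were in the table and 45 were tested. In lung 0 of the 45 were called in any hairpin comparison with edgeR. There 0.206% of all genes were called for shAsns-1 against shRenilla, 0% for shAsns-2 against shRenilla and 0.261% for shAsns-1 against shAsns-2. In tumor libraries labelled shAsns-1 against shRenilla, 12 of the 45 rose and 5 fell, beside the 33.9% of all genes called. The 5 falls became 3 without library D of tumor shAsns-1 or library A of tumor shRenilla. They became 8 without the 2 libraries furthest from their groups, where 45.2% of all genes were called. Hexosamine genes gave 5 rises and 0 falls of 9 tested, and 3 to 6 rises under the alternatives. Uap1l1, a relative of the enzyme that makes UDP-N-acetylglucosamine, had 10.5 CPM in tumor libraries labelled shAsns-1, against 5.12 CPM in tumor shRenilla (1.03 ± 0.17, edgeR adjusted p = 3.34e-05). Nagk, the kinase that salvages N-acetylglucosamine, had 11.7 CPM in libraries labelled shAsns-1, against 6.41 CPM in shRenilla (0.87 ± 0.13, edgeR adjusted p = 1.37e-05). Gnpda2, which returns glucosamine phosphate to glycolysis, had 112 CPM in libraries labelled shAsns-1, against 71.2 CPM in shRenilla (0.66 ± 0.16, edgeR adjusted p = 0.0027). These 3 were called in all 33 alternatives. The other 2 were lost together, leaving 3 rises, without any 1 of B, C or D of tumor shAsns-1, A, B, C or D of tumor shRenilla, C of tumor shAsns-2, B of lung shAsns-1, or A or C of lung shAsns-2.

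For lung against tumor, hexosamine genes gave 1 rise in libraries labelled shAsns-1, 4 in shAsns-2 and 4 in shRenilla, with 0 falls of 9 tested in each, beside 8.55%, 20.9% and 21.8% of all genes called. In shRenilla cells Uap1l1 had 10.0 CPM in lung, against 5.12 CPM in tumor (0.96 ± 0.17, edgeR adjusted p = 0.000107), and Nagk had 11.6 CPM in lung, against 6.41 CPM in tumor (0.85 ± 0.13, edgeR adjusted p = 2.56e-05). The tumor shRenilla libraries serve in this comparison and in the tumor hairpin comparison, so these are not separate measurements. The difference of the shAsns-1 effect between lung and tumor was tested directly and was called for Uap1l1 (-1.03 ± 0.23, edgeR adjusted p = 0.00369) and Nagk (-0.87 ± 0.18, edgeR adjusted p = 0.00206). Without the 2 libraries that stood furthest from their groups, the list gave 6 rises and 0 falls in the tumor hairpin comparison. It gave 4 rises and 0 falls for lung against tumor in shRenilla. These stand beside 45.2% and 30.7% of all genes called, in the same order.

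Among the other enzymes that take nitrogen from glutamine, 1 rose and 2 fell of 7 tested in tumor libraries labelled shAsns-1 against shRenilla. In that comparison 33.9% of all genes were called, and the counts per list were not tested against this share. Ctps, one of the enzymes that make CTP, fell to 181 CPM in libraries labelled shAsns-1, against 284 CPM in shRenilla (-0.65 ± 0.09, edgeR adjusted p = 7.47e-06). Its paralog Ctps2 rose to 38.2 CPM in libraries labelled shAsns-1, against 26.7 CPM in shRenilla (0.52 ± 0.12, edgeR adjusted p = 0.00233). Pfas, an enzyme of purine synthesis, gave -0.33 ± 0.11 (edgeR adjusted p = 0.0307), and that call was lost without library B, C or D of tumor shAsns-1 (adjusted p = 0.0514, 0.0719 and 0.0708) or library A or C of tumor shRenilla (0.0769 and 0.115).

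In the list for aspartate and asparagine use, 2 rose and 1 fell of 4 tested in the same comparison, with 33.9% of all genes called. The gene that fell, Adsl, encodes adenylosuccinate lyase, which does not itself take up aspartate. Adsl had 63.2 CPM in tumor libraries labelled shAsns-1, against 95.9 CPM in shRenilla (-0.60 ± 0.11, edgeR adjusted p = 0.000199). Adss, an adenylosuccinate synthase that joins aspartate to IMP, had 696 CPM in libraries labelled shAsns-1, against 489 CPM in shRenilla (0.51 ± 0.13, edgeR adjusted p = 0.00361). Adssl1, which catalyses the same step in muscle, had 1.01 CPM in libraries labelled shAsns-1, against 0.443 CPM in shRenilla (1.18 ± 0.30, edgeR adjusted p = 0.00376). Of 5 partners of the malate-aspartate shuttle, 2 rose and 0 fell, beside the same 33.9%. The 2 that rose were Slc25a11, the malate and 2-oxoglutarate carrier, at 49.1 CPM in libraries labelled shAsns-1, against 36.1 CPM in shRenilla (0.44 ± 0.09, edgeR adjusted p = 0.000466), and Slc25a13, an aspartate and glutamate carrier, at 0.30 ± 0.10 (edgeR adjusted p = 0.0278, or 0.0514 without tumor shRenilla library B).

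In the same tumor comparison, with 33.9% of all genes called, 0 of 5 genes of glutamine and glutamate breakdown were called. Of 6 proline genes 0 rose and 2 fell, and of 3 genes of the urea cycle and arginine use 1 rose and 0 fell. Prodh, which begins proline breakdown, fell to 8.26 CPM in libraries labelled shAsns-1, against 13.8 CPM in shRenilla (-0.74 ± 0.16, edgeR adjusted p = 0.00075), and Arg2, the mitochondrial arginase, rose to 6.84 CPM in libraries labelled shAsns-1, against 3.26 CPM in shRenilla (1.07 ± 0.23, edgeR adjusted p = 0.000831). Gls2, a glutaminase, was not called there but fell to 7.13 CPM in tumor libraries labelled shAsns-1, against 10.3 CPM in tumor shAsns-2 (-0.54 ± 0.16, edgeR adjusted p = 0.0122). Without library A or D of tumor shAsns-1 the adjusted p of Gls2 was 0.0583 and 0.0539. Gls2 was also lower in shRenilla cells of lung, at 5.93 CPM, against 9.15 CPM in tumor (-0.63 ± 0.16, edgeR adjusted p = 0.00448). Lung against tumor in shRenilla also called other genes named above, each in its direction of the tumor hairpin comparison. Prodh gave -0.607 (edgeR adjusted p = 0.00622), Arg2 1.083 (0.00118), Ctps -0.455 (0.000777) and Ctps2 0.638 (0.000491). Pfas gave -0.45 (0.00554), Slc25a11 0.412 (0.0014) and Adssl1 1.052 (0.0141). Adsl, Adss, Slc25a13 and Gnpda2 were not called there. That comparison called 21.8% of all genes and uses the same tumor shRenilla libraries.

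Over the 6 group means, no gene came close to Asns by a measure that counts both the shape and the size of a pattern. Likeness was taken as the root mean square difference of log2 CPM after each gene's own mean was removed, over 8011 genes above a minimum level. A gene of the same shape with a smaller range would also score as distant. The measure therefore cannot show whether a gene followed Asns in shape alone. The nearest gene was H2afj at 0.693, then Pcif1 at 0.711, 1110008P14Rik at 0.713, Ccl7 at 0.715 and Bcl2l1 at 0.72, where the pattern of Asns itself measured 0.912. Gpt2, with a pattern of 0.318, had a near match in Pck2 at 0.0898. Pck2, the mitochondrial phosphoenolpyruvate carboxykinase, averaged 6.46 CPM in lung shAsns-1, 11.5 in lung shAsns-2 and 8.02 in lung shRenilla, and 6.22 CPM in tumor shAsns-1, 10.6 in tumor shAsns-2 and 7.82 in tumor shRenilla. These are descriptions over 6 means from the same libraries, and Pck2 was picked as the nearest of all genes compared.

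**Figure D4:**
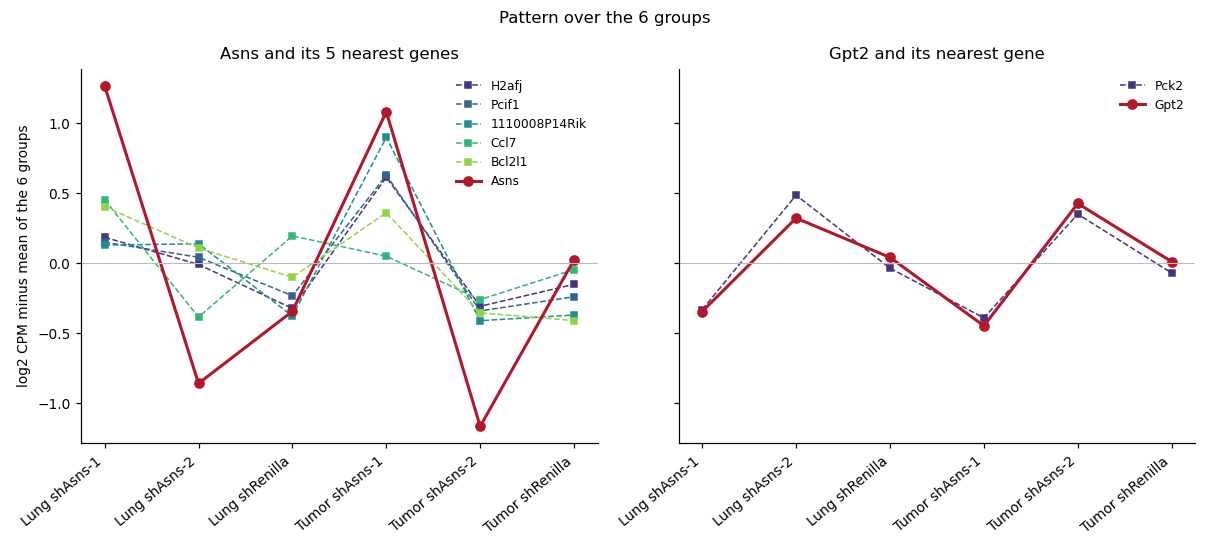
Group mean log2 CPM minus the mean over the 6 groups, against the groups of site and hairpin, for Asns with its 5 nearest genes (left) and for Gpt2 with its nearest gene (right). The lines of the nearest genes stay well inside the range of Asns, with a root mean square difference of 0.693 for the closest, while Pck2 runs beside Gpt2 at 0.0898.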

How the data were processed

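RNA was extracted with Trizol and amplified with the NuGEN Ovation RNAseq V2 kit, per the labels' protocols. Bowtie2, HTSeq and the build mm10 are named in the submitters' processing notes; their versions, the gene annotation and the use of strand are not given in the sources used here, so reads of overlapping antisense genes cannot be told apart. The authors deposited raw whole-number counts per gene symbol for 24 libraries.

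From these, genes were filtered with filterByExpr and libraries scaled by TMM. edgeR 4.0.16 in R 4.3.3 fitted 1 mean per group (glmQLFit with robust estimation, glmQLFTest, 18 residual degrees of freedom), with Benjamini-Hochberg adjustment within a comparison over 12625 genes. The biological coefficient of variation was 14.9%. RPKM used the union of GENCODE exons on GRCm38. The alternatives were DESeq2 1.42.0, limma 3.58.1 with library weights, other scalings, no filter, fewer groups, the letter as a block, and each library left out; a fit without the 2 distant libraries was also run, and offsets for GC content and length were added after seeing the data. Scripts were tested on simulated data.

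The members and lists were chosen with earlier results of these data known. Named were all 9 members, per list and comparison at most the 3 called genes with the largest change, the 5 genes nearest to Asns, and the nearest gene of each other member, of which that of Gpt2 is given. No replicates were counted as 1 library: the closest pair of a group differed beyond sampling noise, with a chi-square of 4.96 per degree of freedom.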

Additional observations from a re-analysis of the deposited data

Results flagged for a closer look

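Within each group of 4 libraries, 1 library stood apart from the others by Dixon's criterion at the 95% level, a gap that takes up most of the group's range, in 3 of the 48 combinations of member and group examined; chance alone flags about 1 in 20. Asnsd1 was at 115.0 CPM in library D of the lung libraries labelled shAsns-1, where the other 3 had 128 to 129 CPM. Gfpt1 was at 79.9 CPM in library B of lung shRenilla, where the other 3 had 43.6 to 48.0 CPM. Gfpt1 was at 46.7 CPM in library C of tumor shRenilla, where the other 3 had 35.2 to 35.8 CPM.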

How the results depend on the processing

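The direction of every called member result held in the 33 alternatives, of which 24 left out 1 library each, and 69 of the 88 results of single members kept the same side of the threshold in all of them. The number of members called moved by more than 1.5 times as follows, with the cause not tested. With limma it was 2 for shAsns-1 against shRenilla in lung and 6 in tumor, 2 for shAsns-2 against shRenilla in lung, 5 for shAsns-1 against shAsns-2 in tumor, 2, 1 and 2 for lung against tumor in shAsns-1, shAsns-2 and shRenilla, and 2 for the difference of the shAsns-1 effect between sites. Limma called more of all genes as well, in the same order 6.0%, 46.6%, 12.3%, 38.8%, 32.6%, 39.9%, 36.4% and 29.1%, so these counts are to be read against those shares. For shAsns-1 against shAsns-2 in lung it called 3 members, against 2 with edgeR, and 15.2% of all genes. With total counts it was 1 for shAsns-1 against shAsns-2 in lung and 1 for lung against tumor in shAsns-1. It was 2 for the difference of the shAsns-1 effect. In the same order, 0.206%, 11% and 14.4% of all genes were called. With only the groups compared it was 1, 3 and 1 for those comparisons in the same order. It was 0 for shAsns-2 against shRenilla in tumor and 0 for lung against tumor in shRenilla. The shares of all genes called, in this order, were 0.0493%, 30.6%, 18.6%, 0.0249% and 15.5%. DESeq2 gave 1 for lung against tumor in shAsns-1, with 9.6% of all genes. The 2 libraries that stood furthest from their groups were B of lung shRenilla and D of lung shAsns-2. Without both, the number was 5 for shAsns-1 against shRenilla in tumor, with 45.2% of all genes. It was 2 and 0 for lung against tumor in shAsns-1 and shRenilla (23.7% and 30.7%). For the difference of the shAsns-1 effect it was 1 (20.9%). Offsets for GC content and length, chosen after seeing the data, gave 1, 2 and 2 for the last 3 comparisons (13.1%, 29.2% and 20%). Leaving out single libraries gave 3 to 5 for shAsns-1 against shRenilla in tumor, 1 to 2 for shAsns-1 against shAsns-2 in lung, 0 to 2 for lung against tumor in shAsns-1 and in shRenilla, and 0 to 1 for the difference of the shAsns-1 effect. The shares of all genes called in those fits are not given here.

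The letters A to D were also fitted as a replicate block, which left the number of members called as in the fit without it. For shAsns-1 against shRenilla in tumor it was 3, with 34.1% of all genes called. Libraries of the same letter did not deviate together on average (mean correlation 0.007 over 60 pairs, between -0.415 and 0.465). Pairs of different letters had a mean of -0.001 over 180 pairs, between -0.385 and 0.581. No pairing by letter was seen, but this cannot settle whether a letter marks a shared mouse or culture. Depth limits Ass1, with 5 counts in all, and Asl.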
